A study of Mus musculus with 4 samples.

Results

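The genes described are 46 imprinted genes of the mouse that lie outside the Snrpn domain, and the measurement is the placement of H1t, the main linker histone of spermatocytes, on them. The members were fixed by name, and a peak was counted for a gene when it overlapped by at least 1 bp the GRCm38 gene body extended by 5 kb on either side. All 46 symbols were found among the 51229 autosomal genes of GENCODE vM21, and their regions took 59 of the 48681 H1t peaks of the list. Chromatin was prepared from testicular cells of C57BL6 mice at postnatal day 20, which the sample labels name as pachytene cells. The group with H1t antibody held 2 ChIP libraries and the group without antibody held 2 input libraries. The authors pooled each group before peaks were called, so that every value below belongs to the pool, no spread between libraries can be given, and no comparison was tested. After duplicates were removed, 39221290 ChIP and 30377916 input fragments remained, and at this depth the lowest pileup of any listed peak was 9 fragments.

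An imprinted gene is expressed mainly or only from the copy inherited from the mother or from the copy inherited from the father. Most imprinted genes lie in clusters, and each cluster is governed by a control region that carries DNA methylation on the copy from the oocyte or on the copy from the sperm. In the male germ line the old marks are erased before birth and marks of the paternal type are then set on both chromosome copies, well before meiosis. In spermatocytes the control regions of H19, Meg3, Rasgrf1 and Zdbf2 are therefore methylated, and those of the oocyte type are not. Linker histones bind DNA between nucleosomes and are known for compacting chromatin. For H1t the authors cite in vitro work in which it condensed chromatin poorly beside a somatic linker histone. The peak list does not separate the chromosome copies, so the words maternally and paternally expressed below name the copy used in somatic tissues. By general knowledge of mouse imprinting, 17 members were classed as maternally expressed, 23 as paternally expressed and 6 as dependent on the transcript or tissue.

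The strongest peak and 4 further H1t peaks of the members are shown first, with CpG dinucleotides, the sites of DNA methylation, in capitals. All 5 sequences were read from the plus strand of GRCm38. The Rasgrf1 sequence is the central 300 bases of a peak of 762 bp at chr9:89915444-89916205, and the others are whole peaks. Zim1 and Commd1 carried the highest folds among whole peaks short enough to print, the Gnas peak held a copy of the hexamer described below, and the Trappc9 peak was the only peak of a member without a CpG.
Rasgrf1, chr9:89915675-89915974: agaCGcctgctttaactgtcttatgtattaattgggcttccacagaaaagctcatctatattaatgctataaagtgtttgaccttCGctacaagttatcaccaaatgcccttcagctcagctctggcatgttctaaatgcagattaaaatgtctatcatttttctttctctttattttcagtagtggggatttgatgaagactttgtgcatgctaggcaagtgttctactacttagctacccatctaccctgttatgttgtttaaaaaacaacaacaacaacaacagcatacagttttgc
Zim1, chr7:6697925-6698181: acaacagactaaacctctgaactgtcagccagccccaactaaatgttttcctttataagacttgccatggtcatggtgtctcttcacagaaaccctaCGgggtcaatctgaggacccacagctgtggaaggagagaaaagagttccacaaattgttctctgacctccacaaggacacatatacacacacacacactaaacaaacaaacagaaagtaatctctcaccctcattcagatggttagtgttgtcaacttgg
Commd1, chr11:22943383-22943631: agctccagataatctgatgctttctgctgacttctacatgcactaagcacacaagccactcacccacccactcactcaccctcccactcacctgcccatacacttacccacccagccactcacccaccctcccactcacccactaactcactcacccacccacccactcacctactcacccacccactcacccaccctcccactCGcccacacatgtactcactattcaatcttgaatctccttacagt
Gnas, chr2:174280657-174280918: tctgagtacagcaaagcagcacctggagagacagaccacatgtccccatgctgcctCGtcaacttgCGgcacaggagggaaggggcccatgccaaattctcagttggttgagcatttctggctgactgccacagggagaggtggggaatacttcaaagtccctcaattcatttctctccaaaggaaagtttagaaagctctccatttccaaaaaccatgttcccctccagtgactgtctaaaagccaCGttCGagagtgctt
Trappc9, chr15:72952270-72952539: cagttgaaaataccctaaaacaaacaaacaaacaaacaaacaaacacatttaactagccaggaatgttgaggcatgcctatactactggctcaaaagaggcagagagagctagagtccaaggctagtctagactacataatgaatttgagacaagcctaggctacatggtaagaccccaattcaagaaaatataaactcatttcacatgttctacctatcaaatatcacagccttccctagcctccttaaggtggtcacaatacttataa
The Rasgrf1 stretch held 2 CpG and the Gnas peak held 4. The Zim1 peak was made mostly of masked bases, those that the reference marks as repeats, at 75.5% of its length. In the Commd1 peak 47.8% of the bases were masked, while the Gnas peak held none.

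Promoter windows of Mest, Nap1l5 and Plagl1, members of the oocyte type, are shown next, since promoters of this type carry the germline mark. ZFP57 is a zinc finger protein that keeps the methylation of imprinting control regions in the embryo and binds the hexamer TGCCGC when its CpG is methylated. Capitals mark this hexamer on either strand (TGCCGC or GCGGCA). It was the only motif searched, and it contains a CpG. The windows run from 250 bases before to 50 bases after a RefSeq start on GRCm38, in the direction of transcription.
Mest, chr6:30737800-30738099, plus strand: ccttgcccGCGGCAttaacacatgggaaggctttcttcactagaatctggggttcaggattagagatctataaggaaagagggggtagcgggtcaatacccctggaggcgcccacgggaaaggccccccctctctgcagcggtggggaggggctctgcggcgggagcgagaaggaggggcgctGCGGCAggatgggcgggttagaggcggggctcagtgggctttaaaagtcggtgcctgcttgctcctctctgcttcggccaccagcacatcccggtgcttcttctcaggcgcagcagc
Nap1l5, chr6:58907077-58907376, minus strand: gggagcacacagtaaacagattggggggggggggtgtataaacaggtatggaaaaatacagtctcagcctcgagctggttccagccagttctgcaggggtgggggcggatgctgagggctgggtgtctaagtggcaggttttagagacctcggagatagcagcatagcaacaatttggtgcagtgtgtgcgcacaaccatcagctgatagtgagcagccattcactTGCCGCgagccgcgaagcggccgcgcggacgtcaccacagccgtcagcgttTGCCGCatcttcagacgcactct
Plagl1, chr10:13090582-13090881, plus strand: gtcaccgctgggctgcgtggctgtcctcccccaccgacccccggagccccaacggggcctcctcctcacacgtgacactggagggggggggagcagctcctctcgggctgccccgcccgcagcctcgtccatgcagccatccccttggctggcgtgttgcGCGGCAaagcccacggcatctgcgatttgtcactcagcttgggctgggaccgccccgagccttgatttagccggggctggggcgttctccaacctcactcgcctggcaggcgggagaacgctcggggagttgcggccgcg
The Mest and Nap1l5 windows each held 2 copies of the hexamer, and the Plagl1 window held 1. Windows of Peg3, Kcnq1ot1, Zrsr1 and Slc38a4, also of the oocyte type, held none. No H1t peak overlapped any of these windows. RefSeq windows were found for 35 members, 54 windows in all, and 14 of the 54 (25.9%, 95% Wilson interval 16.1 to 38.9) held the hexamer, against 11.6% of 31396 autosomal windows of the same length. Windows of the same gene can overlap, as those of Mest from 30737800 and from 30737803 do, and both of these were counted as holding the hexamer. The Wilson intervals take the windows as independent. The median window of the members held 17 CpG against 7 over all windows. None of the 54 windows overlapped an H1t peak, which allows a share of up to 6.64% (Wilson), and over all windows the share was 1.60%.

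H1t peaks were found in the regions of 26 of the 46 members, which is 56.5% (95% Wilson interval 42.2 to 69.8). Over all autosomal genes 35.5% held a peak, and over autosomal protein-coding genes 46.6% did. Longer genes hold more peaks, so each member was set beside the autosomal genes whose bodies were at most 20% shorter or 25% longer than its own. At the share seen among these genes of like length, 26.6 members (57.8%) would hold a peak. The members' counts added to 62, because 3 of the 59 peaks fell in the regions of 2 members each, against 70.8 for genes of like length. The ratio was 0.876 with a 95% exact Poisson interval of 0.671 to 1.12. The imprinted genes thus held H1t peaks about as often as other genes of their size, within counting error. The intervals cover counting error only and take neighbouring peaks as independent.

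**Figure D1:**
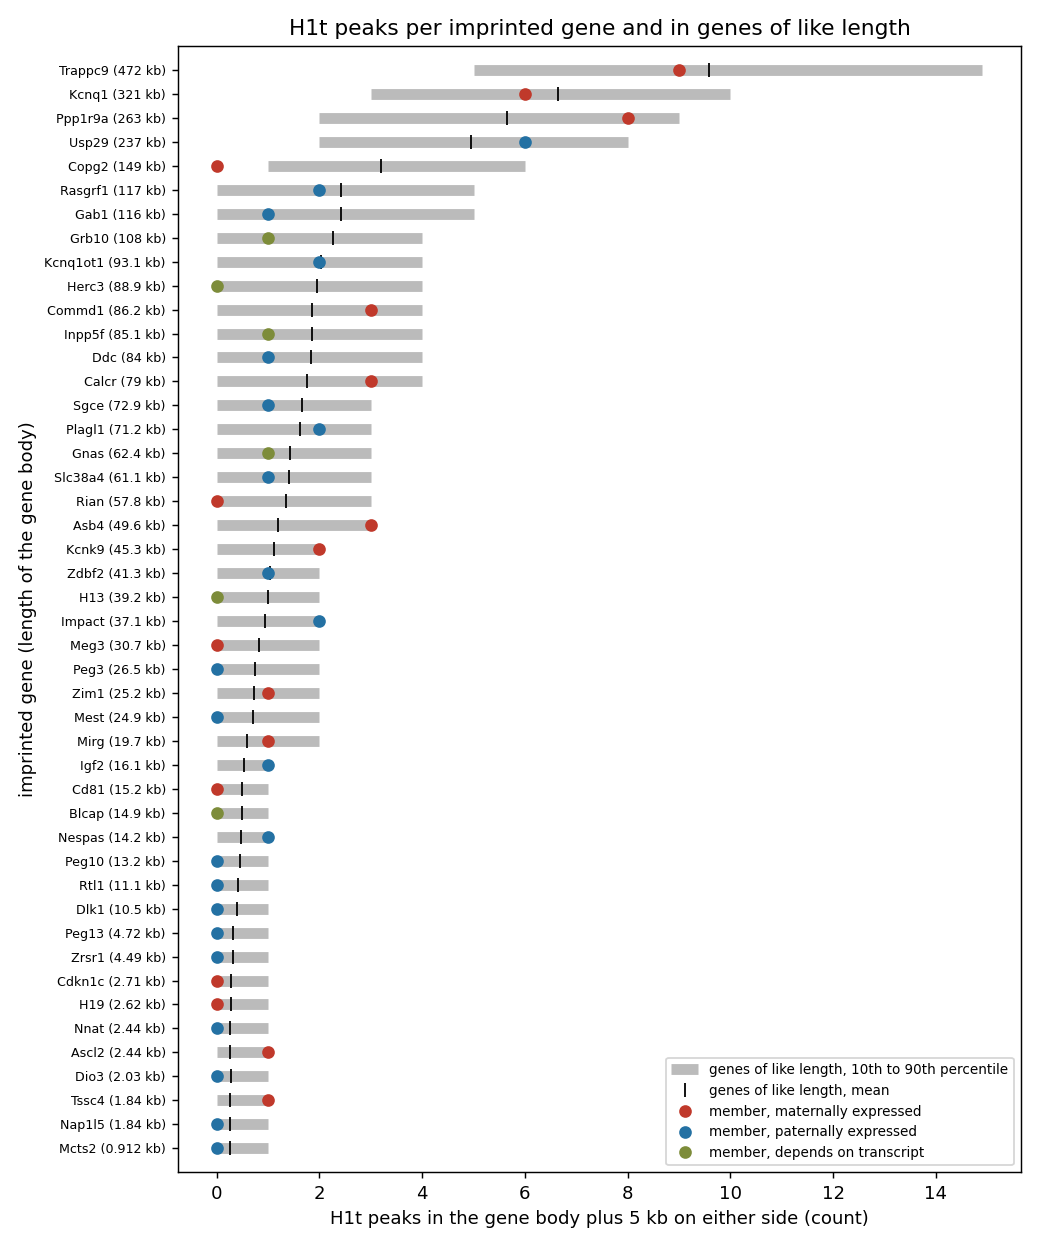
H1t peaks per imprinted gene (points, coloured by the expressed copy), with the mean (black ticks) and the 10th to 90th percentile (grey bars) of autosomal genes of like length; the horizontal axis is a count. Of 46 members, 1 (Copg2) lies below its grey bar and 0 lie above theirs. Only the bars of Kcnq1, Usp29, Copg2, Ppp1r9a and Trappc9 begin above 0, so no other member could lie below its bar.

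By count alone, 14 members lay above the median of genes of like length, 9 lay below it and 23 were at it. For all 18 members under 20 kb that median was 0, so that none could lie below it, and 5 lay above it. The split therefore shows no surplus of peaks. Among members of 20 to 100 kb 7 lay above and 6 below, and among those of 100 kb or more 2 and 3. The members with bodies under 20 kb held a peak in 5 of 18 cases, those of 20 to 100 kb in 14 of 20 and those of 100 kb or more in 7 of 8. The like-length genes gave 5.17, 13.8 and 7.58 for the same 3 classes. Copg2, a subunit of the coat of transport vesicles, was the member of 100 kb or more without a peak. Its body is 149 kb long, and 94.1% of 1011 genes of like length held at least 1 peak. The stretch without a peak around Copg2 includes 50000 bases of assembly gap, for which the comparison was not corrected.

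The merged member regions covered 3308 kb and held 17.8 peaks per Mb (95% exact Poisson interval 13.6 to 23.0). All autosomal gene regions held 20.5 peaks per Mb and those of protein-coding genes held 19.6. At the density of their own chromosomes the member regions would hold 68.4 peaks.

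The maternally expressed members held 38 peaks at 21.3 per Mb (interval 15.1 to 29.2), and 11 of 17 had at least 1. The paternally expressed members held 21 peaks at 16.5 per Mb (interval 10.2 to 25.2), and 12 of 23 had at least 1. The density ratio of maternally to paternally expressed members was 1.29, with an interval of 0.739 to 2.32 that includes equal densities. The classes overlap, since the 2 peaks of Kcnq1ot1 also fall in Kcnq1 and were counted in both. Peg13 and Zrsr1 likewise lie within Trappc9 and Commd1. The interval takes the counts of the classes as independent. Against genes of like length the maternally expressed members stood at 1.05 times the count (0.746 to 1.45) and the paternally expressed members at 0.815 times (0.505 to 1.2). A difference between the classes was not detectable with these counts. The 6 members whose expressed copy depends on the transcript (Grb10, Gnas, Blcap, H13, Inpp5f and Herc3) held 3 peaks where genes of like length gave 8.99, a ratio of 0.334 (0.0688 to 0.975). With 3 peaks in 6 genes this low ratio rests on very few counts.

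**Figure D2:**
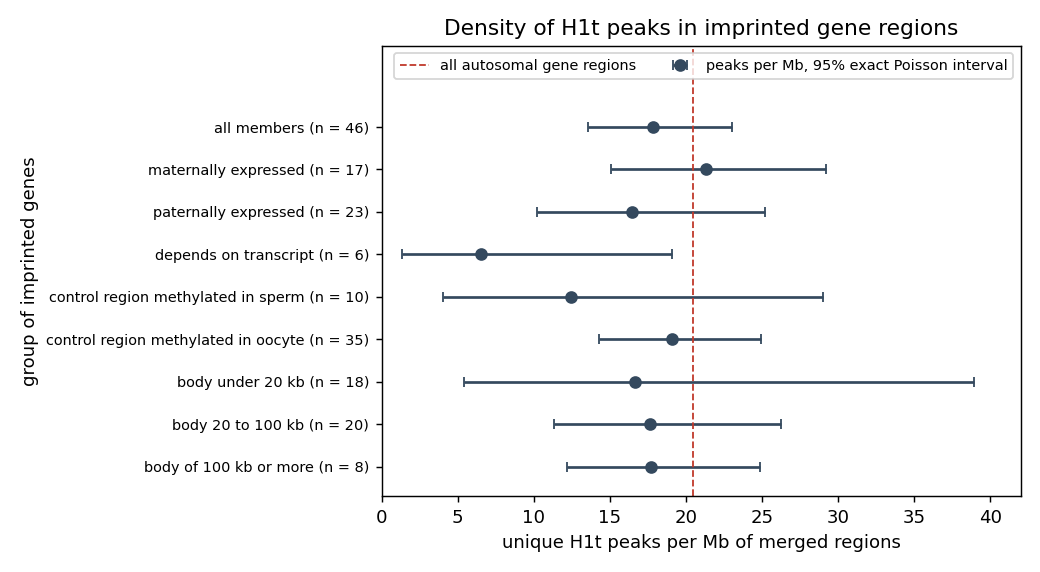
Unique H1t peaks per Mb of merged gene regions for classes of imprinted genes, with 95% exact Poisson intervals (bars), on a linear axis; the dashed line is the density of all autosomal gene regions, 20.5 per Mb. The intervals of all classes overlap one another, and that of the transcript-dependent class (1.35 to 19.1) lies below the dashed line.

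The germ line that methylates each control region was likewise assigned from general knowledge and not from the files. In this grouping 10 members of the sperm type held 5 peaks at 12.4 per Mb (4.03 to 29.0). The 35 members of the oocyte type held 53 peaks at 19.1 per Mb (14.3 to 24.9). The ratio was 0.651 with an interval of 0.203 to 1.62, so no difference was detectable. Gab1 was placed in neither type.

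Nearly all peaks of the members were weak. The fold, which is the ChIP pileup over the local background with 1 added to each, ran from 1.62 to 1.97 in 58 of the 59 peaks. In all 58 (98.3%) the q was 1, as in 96.8% of autosomal peaks. Over all autosomal peaks the 25th to 75th percentile of fold was 1.68 to 1.796, and that of the member peaks was 1.68 to 1.78. Of the 59 peaks 1 (1.69%, Wilson interval 0.300 to 8.996) had a fold of at least 2, against 3.58% of autosomal peaks. The same peak was the only one with a q under 0.05, against 0.242% of autosomal peaks. Among members 1 of 46 therefore held a peak of fold at least 2, and among all autosomal genes 2.34% did. The p was under 0.01 for 4 peaks (6.78%, interval 2.67 to 16.2) against 11.7% of autosomal peaks, and 9 peaks (15.3%) lay at the lowest pileup of 9 fragments against 20.0%. The local background was raised above the genome-wide value in 13 of the 59 (22.0%), as in 22.1% of autosomal peaks.

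**Figure D3:**
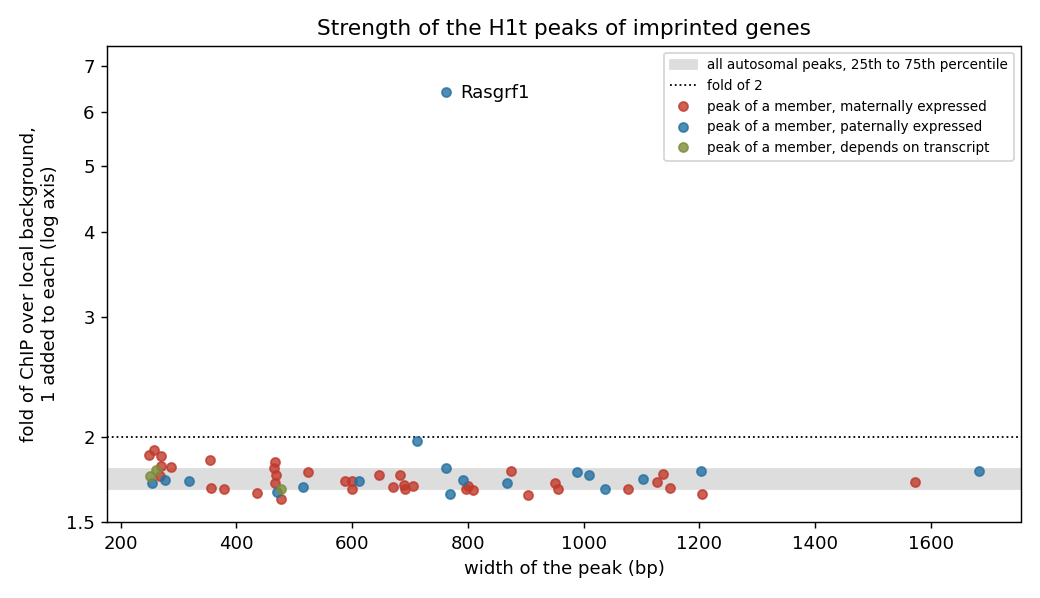
Fold of ChIP over local background, 1 added to each (log axis), against width in bp for the 59 H1t peaks of imprinted genes, coloured by the expressed copy of the gene; a peak shared by 2 members takes the colour of Kcnq1 or Gnas. The grey band is the 25th to 75th percentile of all autosomal peaks, 1.68 to 1.796, and 1 peak, in Rasgrf1 at 6.41, stands above the dotted line at 2.

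The exception lay in Rasgrf1, which encodes an exchange factor that activates Ras in neurons and is expressed from the paternal copy. This peak had a pileup of 37.8 fragments, a fold of 6.41, a −log10 p of 21.8 and a −log10 q of 16.9. It ranked 11 by fold and 21 by p among all 48681 peaks. Its local background was 5.05 fragments, against a genome-wide value of 4.95, and was counted among the 13 raised ones. It lay just past the limit, set at 2% above the genome-wide value. The peak overlapped exon sequence of annotated transcripts of Rasgrf1, 5.53 kb from the nearest annotated start, and 27.6% of its bases were masked. It held 9 CpG over 762 bp. The second Rasgrf1 peak, 116 kb into the gene, had the fold usual for the list, at 1.72 with a pileup of 9.26. The control region of Rasgrf1 lies upstream of the gene and is methylated in sperm. No peak overlapped the window from 25 to 45 kb upstream of its start, and the strong peak lay 30.5 kb from that window. Chromosome 9 held 20.3 peaks per Mb, at which most windows of this length hold no peak.

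The next folds were far lower. Impact, which restrains the kinase GCN2 and so a translational stress response, held a peak of fold 1.97 and pileup 10.7, and a further peak of fold 1.73. Zim1, a zinc finger gene of the Peg3 cluster, held a peak of fold 1.92 and pileup 10.4 that lay 1475 bp upstream of its body. In Commd1, whose product takes part in copper handling, the highest of 3 folds was 1.89 at a pileup of 10.2. These and Rasgrf1 were the 4 members with a peak at a p under 0.01.

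By count Trappc9 came first, a maternally expressed subunit of a vesicle trafficking complex with a body of 472 kb. It held 9 peaks, which was also the median of genes of like length. Their folds ran from 1.64 to 1.87. The peak with the highest local background of all members, 6.96 fragments, was among them. Along the gene 6 lay within its first part and 3 towards its end, with 222 kb free of peaks between. Over the autosomes 741 stretches between peaks were as long, and they held 11.1% of the bases between peaks. Of the 741 stretches 691 were without an assembly gap, as was this one. Peg13, a paternally expressed non-coding RNA that is transcribed from within Trappc9 and whose promoter carries the oocyte mark, lay inside this stretch, and its nearest peak was 101 kb from its start. Kcnk9, a potassium channel gene of the same cluster, held 2 peaks of folds 1.70 and 1.68.

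Ppp1r9a, which encodes the actin-binding scaffold neurabin, held 8 peaks against a median of 5 in genes of like length, and 21.1% of those genes held at least as many. All 8 were intronic, with folds from 1.65 to 1.81. In the same cluster Asb4, a subunit of a ubiquitin ligase, and Calcr, the calcitonin receptor, held 3 peaks each. Asb4 had the highest count for its length among members with at least 2 peaks, at 5.03 per 100 kb, and 11.8% of genes of like length held at least as many. Calcr held its 3 peaks at folds of 1.68, 1.75 and 1.76, the last of them 0.884 kb upstream of an annotated start. Sgce, a sarcoglycan gene, held 1 peak of fold 1.71. Peg10, a gene derived from a retrotransposon that shares its start region with Sgce, held 0, with the nearest peak 40.4 kb from its starts.

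In the Kcnq1 cluster the potassium channel gene Kcnq1 held 6 peaks, the median of genes of like length. All 6 were intronic with folds from 1.68 to 1.84, and the first lay 143 kb into the gene. A stretch of 167 kb without a peak reached from upstream of Kcnq1 to that peak, and 1851 autosomal stretches, with 19.7% of the bases between peaks, were as long. Without an assembly gap there were 1793 such stretches. Kcnq1ot1, the antisense RNA that silences the cluster on the paternal copy, shared 2 of the Kcnq1 peaks, of folds 1.70 and 1.68, since it is transcribed within Kcnq1. Its start, which carries the oocyte mark, lay 7.06 kb from the nearest peak. Ascl2, a transcription factor of the trophoblast, held 1 peak at 1.62, the lowest fold of any member, and Tssc4 held 1 at 1.72. Cdkn1c, an inhibitor of cyclin-dependent kinases, and Cd81, a tetraspanin, held 0.

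**Figure D4:**
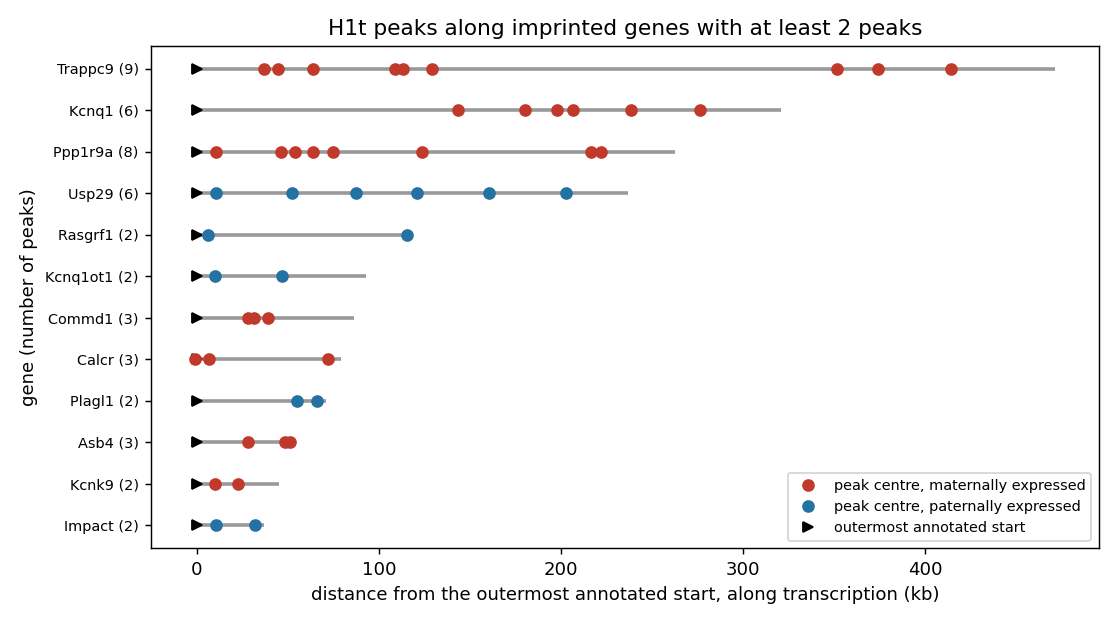
Centres of H1t peaks (points) along the 12 imprinted genes with at least 2 peaks, in kb from the outermost annotated start along the direction of transcription; grey lines are gene bodies and triangles are starts. The first Kcnq1 peak lies 143 kb into the gene, the 9 Trappc9 peaks leave 222 kb free, and the Usp29 peaks lie 33.5 to 42.4 kb apart.

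Usp29, a paternally expressed gene for a deubiquitinating enzyme, held 6 peaks against a median of 5 in genes of like length. Its folds ran from 1.66 to 1.803, and all 6 peaks were intronic. From centre to centre they lay 33.5 to 42.4 kb apart. Peg3, the zinc finger gene that starts beside Usp29 and whose promoter carries the oocyte mark, held 0. The peak nearest to its body lay 5711 bp away, just outside the 5 kb limit, and is the same peak that was counted for Zim1. Plagl1, a zinc finger gene that restrains the cell cycle, held 2 peaks of folds 1.71 and 1.78. The former lay 0.39 kb from an annotated start.

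The members named next held 1 peak each. Grb10, an adaptor that restrains insulin signalling, held 1 of fold 1.68, and Ddc, dopa decarboxylase, in the same cluster, held 1 of fold 1.79. Igf2, a fetal growth factor, held 1 of fold 1.69 that lay 114 bp past its body. Gnas, which encodes a G protein subunit, and its antisense RNA Nespas shared 1 peak of fold 1.79. Inpp5f, a phosphoinositide phosphatase gene, held 1 of fold 1.75, and Zdbf2, a zinc finger gene, 1 of 1.74. Slc38a4, an amino acid transporter gene, held 1 of 1.65, and Gab1, a docking protein of growth factor receptors, 1 of 1.68. Gab1 is a long gene of 116 kb, and 89.0% of genes of like length held at least 1 peak. The stretch without a peak that begins in Gab1 was 365 kb long, and 99 autosomal stretches were as long, 65 of them without an assembly gap.

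The other 20 members held no peak. They were H19, Cdkn1c, Cd81, Peg3, Mest, Copg2, Peg10, Meg3, Dlk1, Rtl1, Rian, Dio3, Nnat, Blcap, Zrsr1, Mcts2, H13, Peg13, Nap1l5 and Herc3. Of these 6 were maternally expressed, 11 paternally expressed and 3 dependent on the transcript. Copg2 and Herc3 were the longest. The nearest peak lay within 10 kb of the body for 5 of them, Peg3, Cd81, Blcap, H13 and Copg2. The farthest peak counted inside the limit belonged to Gnas, at 3402 bp from its body with a fold of 1.79, and the nearest left outside was that of Peg3 at 5711 bp with a fold of 1.92.

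Of the 20 imprinted clusters, 16 held a peak in the region of at least 1 member. The clusters of Mest, Nnat, Mcts2 and Nap1l5 held 0. At the density of their chromosomes these clusters would hold 3.70, 0.478, 0.945 and 1.998 peaks, with spans not corrected for assembly gaps. Around Mest, a hydrolase gene, and Copg2 the stretch without a peak was 246 kb long, though 50000 of its bases are an assembly gap. Around Nap1l5, a nucleosome assembly retrogene, and its host Herc3, a ubiquitin ligase, it was 227 kb with no assembly gap, and 617 autosomal stretches without such a gap were as long.

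The longest stretch around any member lay in the Dlk1-Dio3 cluster, followed by that at Gab1. From a peak 144 kb before the start of Dlk1 to a peak 252 kb after it, 396 kb of chromosome 12 held no H1t peak. It spans Dlk1, a ligand-like inhibitor of differentiation, Meg3 and Rian, maternally expressed non-coding RNAs, and Rtl1, a placental gene derived from a retrotransposon. It also spans 24 annotated miRNA genes and 23 snoRNA genes, among 61 annotated genes in all. The median stretch between autosomal peaks was 31.9 kb. Of 48385 stretches 79 were as long, 45 of them without an assembly gap, and they covered 3.74% of the autosomal bases that lie between peaks. The stretch was picked as the longest around any member, so its rank is not that of a stretch named beforehand. Those given for Trappc9, Kcnq1 and Gab1 were likewise the longest around each gene. The list holds only called peaks, so H1t signal below the calling threshold inside the stretch was not measured. This stretch held no assembly gap, 22.7% of its bases were masked and its G and C content was 46.1%. The 4 members in it were counted as 4 of the 20 without a peak, although they share 1 stretch.

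**Figure D5:**
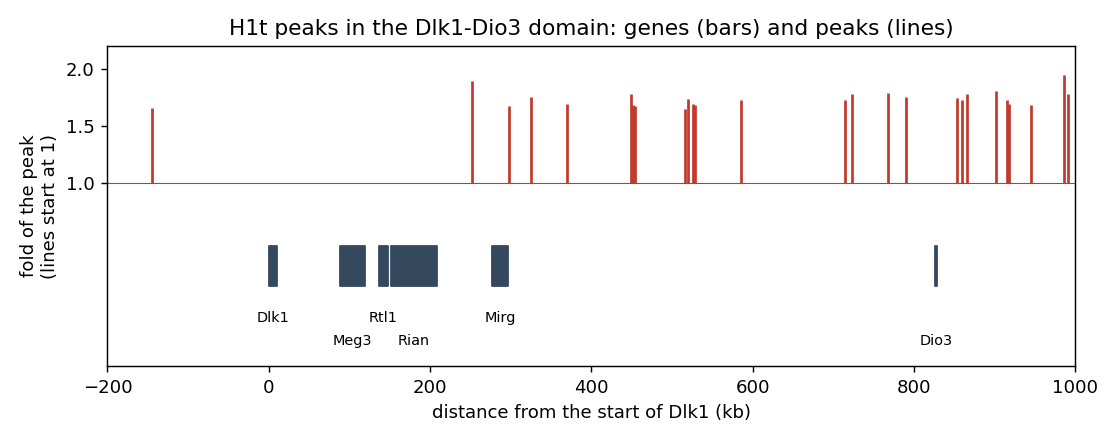
H1t peaks (red lines, height is the fold, from 1) and the 6 imprinted genes (dark bars, drawn to scale) by distance in kb from the start of Dlk1. No peak lies between -144 and 252 kb, a stretch that spans Dlk1, Meg3, Rtl1 and Rian, while 16 peaks lie between Dlk1 and Dio3 including the flanks.

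Peaks were listed in the rest of the cluster. Over the whole span of 838 kb from Dlk1 to Dio3, 16 peaks were listed where the density of chromosome 12 gives 17.2. Mirg, a non-coding RNA that carries miRNAs, held 1 peak of fold 1.67 at 1313 bp past its body, and Dio3, a deiodinase that inactivates thyroid hormone, held 0. The sperm-methylated control region lies between Dlk1 and Meg3, and no peak overlapped the window from 10 to 15 kb upstream of Meg3. The nearest peak was 174 kb from that window. Likewise no peak overlapped the window from 2 to 4 kb upstream of H19, the growth-restraining RNA beside Igf2, and the nearest lay 20.8 kb away. Chromosomes 12 and 7 held 20.5 and 23.8 peaks per Mb, at which most windows this short hold no peak. The absence of a peak therefore does not set these control regions apart. No window was examined for the control region of Zdbf2.

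For 14 members with a promoter of the oocyte type, all annotated starts were examined, since the files do not mark which start carries the methylation. Of these members 1, Plagl1, had a peak within 1 kb of any annotated start, against 7.45% of autosomal genes. This was an internal start, since the centre of the peak lay 55.0 kb from the outermost start of Plagl1, and the promoter window printed above held no peak. To the closest of their annotated starts the distance was 1.19 kb for Impact and 101 kb for Peg13. From the outermost start of Impact it was 10.2 kb. Over all 46 members 2 had a peak within 1 kb of any annotated start, Plagl1 and Calcr. The distance from the outermost start to the nearest peak had a median of 17.5 kb over the members, 17.7 kb over all autosomal genes and 19.2 kb over protein-coding genes.

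Relative to the member each was counted for, 43 of the 59 peaks lay in introns, 7 over exons, 5 upstream and 4 downstream of the body. With the exons and bodies of all annotated genes taken into account, 41 (69.5%, Wilson interval 56.9 to 79.7) lay in introns only, against 61.6% of the peaks in autosomal gene regions. Exons were overlapped by 10 (16.9%, interval 9.48 to 28.5) against 20.0%, and 8 (13.6%) lay outside gene bodies against 18.4%. Median width was 670 bp, against 653 bp over autosomal peaks. The median G and C content was 45.6% against 44.0%, and the median CpG count per 100 bp was 0.910 against 0.729. For the peaks in autosomal gene regions these medians were 44.5% and 0.787. Over all bases the members' peaks held 1.06 CpG per 100 bp, against 1.11 in the members' regions. The hexamer TGCCGC, on either strand, was found in 6 of the 59 peaks (10.2%, Wilson interval 4.74 to 20.5) against 5.22% of autosomal peaks. These were 2 peaks of Kcnq1 and 1 each of Plagl1, Impact and Zdbf2, with the peak that Gnas and Nespas share.

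Few of the members' peaks were made mostly of masked bases. This measure counts masked bases and does not assign peaks to classes of repeat such as LINE or LTR. Masked bases made up 50% or more of 4 of the 59 peaks (6.78%, Wilson interval 2.67 to 16.2), those of Ppp1r9a at 85.0%, Zim1 at 75.5%, Mirg at 67.6% and Trappc9 at 57.8%. Among all autosomal peaks the share was 24.0%, and among those in gene regions 18.6%, both above the interval. No base was masked in 8 member peaks (13.6%, interval 7.03 to 24.5) against 8.75% of the peaks in gene regions. The members' regions were themselves less masked, at 21.6% of bases against 29.2% over all autosomal gene regions. The part of this in the lower share was not tested. Over all bases the members' peaks were masked at 18.2%, and all autosomal peaks at 33.4%.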

How the data were processed

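H1t ChIP and input were each sequenced in 2 libraries. Reads were checked by the authors in FastQC 0.11.5 and mapped to GRCm38.p5 by Bowtie2. MACS2 2.1.2 then compared the pooled ChIP with the pooled input in broad mode, at a p cutoff of 0.05 and an effective genome size of 1.87e+09. Their deposited list gives the signal of each peak as a pileup of fragments. It also holds −log10 p and −log10 q as deposited by the authors, and the authors' ratio (fold) of pileup to local background, with 1 added to each. The local background was worked back from the pileup and the fold. Depth was 39221290 ChIP and 30377916 input fragments for the pools, and intervals cover counting error only.

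The members and lists were chosen with earlier results of these data known. Gene bodies came from GENCODE vM21, sequences from GRCm38.p6, whose primary chromosomes share coordinates with GRCm38.p5, and promoters from RefSeq. In all, 0 peaks ended past a chromosome. The list's header says q was not computed, but numbers fill that column and they were taken as they stand. Regions were extended by 5 kb, merged for densities, and an overlap needed 1 bp. Like-length genes were autosomal non-members. A local background was called raised when it exceeded 4.95 fragments by over 2%. Masked bases are lower-case bases of the genome. Genes named were those with a peak of fold at least 2, of q under 0.05 or within 1 kb of a start, the 8 highest counts and counts per length, and the highest count of each cluster. Other members, those without a peak included, were named beside these. Alternatives are given in the closing section. Columns of single libraries that were left out numbered 0. Python 3.11.15, numpy 2.4.6, pandas 2.3.3, scipy 1.17.1 and matplotlib 3.10.9 were used, and counting was tested on simulated data.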

Additional observations from a re-analysis of the deposited data

How the results depend on the processing

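Of 37 alternatives, 25 left the value within its 95% interval, or within 1.5 times for the number of members with a peak. With peaks of q under 0.05, 1 member held a peak (0.199% of autosomal genes), at 0.302 peaks per Mb against 0.0474 in autosomal gene regions. With peaks of fold at least 2, 1 member held a peak (2.34%), at 0.302 per Mb against 0.755, the maternal to paternal ratio was 0, with 0 and 1 peaks, and the ratio to genes of like length was 0.402. With peaks of p under 0.01, 4 members held a peak (6.64% of autosomal genes), at 1.21 per Mb against 2.46, and the maternal to paternal ratio was 0.714, from 2 and 2 peaks. At these thresholds too few peaks are left to compare classes. Grouping by the germ line of methylation gave 0.651 in place of the maternal to paternal ratio. A fold of at least 1.8 was reached by 16.9% of the members' peaks, against 24.1% of autosomal peaks. Among peaks at the genome-wide background a fold of at least 2 was reached by 0% (interval 0 to 7.71), against 3.08% of autosomal peaks. The Rasgrf1 peak was left out there only because its local background, 5.05 fragments, lay just past the 2% limit. The number of members with a peak was 18 without the flank (21.7% of autosomal genes) and 34 with a flank of 20 kb (63.0%). With RefSeq gene models, 25 of the 45 members matched held a peak (37.5% of autosomal genes). The ratio to genes of like length ran from 0.841 without the flank to 0.920 with 20 kb. Leaving out Trappc9, an alternative chosen after seeing the data, gave a maternal to paternal ratio of 1.35, and leaving out Rasgrf1, likewise chosen, gave 1.29. Every call on a strong peak rests on the Rasgrf1 peak. No paired analysis was possible because the libraries were pooled before peaks were called and no value belongs to a single library.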
